A study of Mus musculus with 3 samples.

Results

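The CatSper calcium channel complex was followed through 9 genes: the pore subunits Catsper1, Catsper2, Catsper3 and Catsper4, the auxiliary subunits Catsperb, Catsperd, Catsperg1 and Catsperg2, and the calcium-sensing subunit Efcab9. They were taken by gene symbol from the array's annotation and set beside all 19938 genes that the arrays name on a probe set of their own. Of the 9 genes, 7 had 1 probe set each that names only that gene. Catsperg1 and Catsperg2 were named together on a single probe set and on no other, so neither has a level of its own.

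RNA came from 3 samples labelled spermatids of wild type BALB/c male mice at 30 days of age, hybridised to a single-channel Affymetrix whole-transcript array. The samples form 1 group of numbered replicates with no control or treated group, and their labels do not say whether they came from separate animals, so the spread between them may be technical. Testis tubules were homogenised and strained to single cells, and the labels describe no sorting step. In such RNA, fewer cells of a type and less RNA per cell cannot be told apart.

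CatSper is the calcium channel of the sperm tail. Its 4 pore proteins each supply a part of a single calcium-selective pore, and the channel opens when the inside of the sperm cell turns alkaline and the membrane depolarises. Large auxiliary proteins with extracellular parts surround the pore, and EFCAB9, an EF-hand protein, works with CATSPERZ on its inner side. Calcium entry through CatSper drives hyperactivated swimming, and male mice that lack a pore subunit are infertile.

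The start regions of the members differ in base composition, and 3 are shown because they belong to members whose values, or whose neighbour's values, stand out below. The reference promoter table (RefSeq, build GRCm38.p6) held 9 windows for 7 of the 9 members; Catsper1 and Catsperg2 were not matched. Each window runs from 250 bases before to 50 bases after an annotated start site. Catsper2 lies head to head with Pdia3, and Catsperd with Lonp1. The stretches between the opposed start sites of these pairs and the 120 bases before the start site of Catsperb are given 5′ to 3′ on the strand of the CatSper gene, with capitals marking CCAAT (or ATTGG on the other strand) and ACGTCA, the core of a cyclic AMP response element.
Catsper2, chr2:121413793-121413901, minus strand: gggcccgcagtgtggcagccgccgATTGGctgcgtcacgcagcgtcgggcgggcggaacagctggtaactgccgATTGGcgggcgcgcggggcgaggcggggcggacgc
Catsperd, chr17:56626904-56627046, plus strand: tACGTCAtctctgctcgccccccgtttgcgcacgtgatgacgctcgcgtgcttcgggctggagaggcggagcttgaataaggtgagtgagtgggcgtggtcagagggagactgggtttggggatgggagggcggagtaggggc
Catsperb, chr12:101404553-101404672, plus strand: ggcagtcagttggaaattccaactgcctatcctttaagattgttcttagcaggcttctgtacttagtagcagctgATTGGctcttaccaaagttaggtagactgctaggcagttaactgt

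The Catsper2 stretch of 109 bases had a GC content of 77.1% with 18 CpG dinucleotides, and the Catsperd stretch of 143 bases had 63.6% with 12. The 120 bases before Catsperb had 43.3% and no CpG. Over the 250 bases upstream, the member windows ranged from 38% GC (Catsperb) to 74.8% (Catsper2), around a median of 52.4% for all 32851 windows in the table. Start sites of another gene on the opposite strand within 250 bases upstream were found for 3 of 9 member windows. The share was 7.7% of all windows, and 0 of 8 windows of the other genes of the complex listed below. The third member window was that of Catsper3, whose start site lies 110 bases from that of 4930451E10Rik. On either strand of those 250 bases, CCAAT was found in 2 of 9 member windows (33.8% of all windows) and ACGTCA in 1 (6.47%). TATAAA was found in 1, that of Catsperg1 (12.4%). The full element TGACGTCA, which contains ACGTCA, was in none (1.55% of all windows), nor was GTTGCC, a half-site of RFX factors (10.4%). In the 8 windows of the other complex genes, CCAAT was found in 4 and each of the other motifs in 0. These matches describe letters in a window and show no binding.

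All 7 CatSper genes with their own probe set lay above background. The background level was 7.98 on the log2 scale, the 95th percentile of 211 vomeronasal receptor and hair keratin associated protein genes, families known from the vomeronasal organ and the hair follicle. Each gene's mean over the arrays was tested against that level by limma with Benjamini-Hochberg adjustment over all genes, and 36.6% of all named genes were called. The mean levels of the 7 members ran from 10.31 to 11.86 with a median of 10.62, against a median of 7.45 for all named genes. They lay 2.33 to 3.87 above background on the log2 scale. Probes for different genes bind with different strength, so the order of the members is an order of probe set values and not of RNA amounts.

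**Figure D1:**
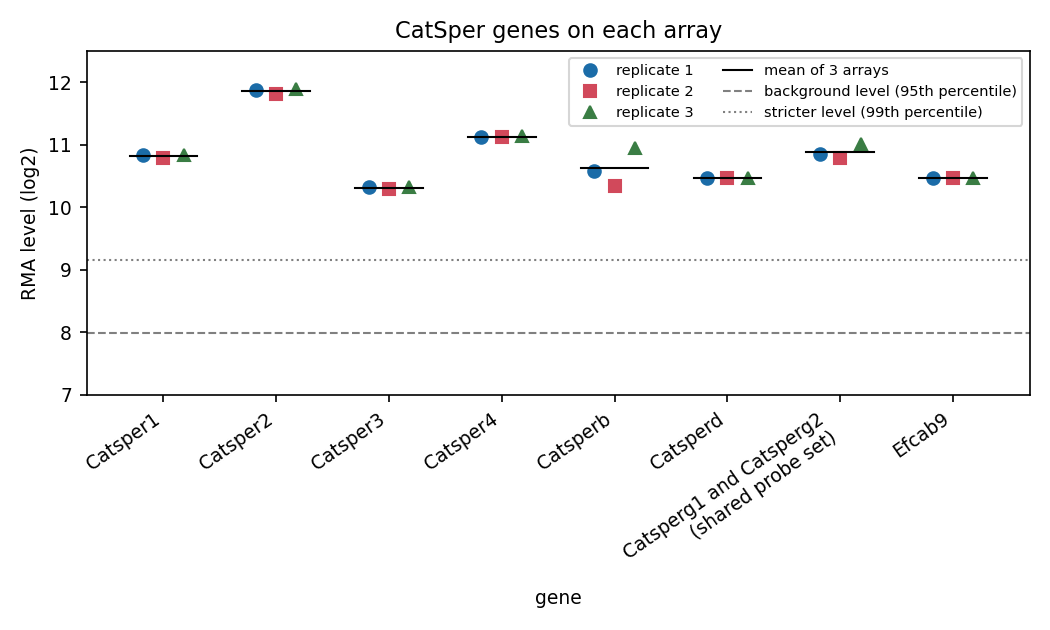
RMA level (log2) of each CatSper gene on each of the 3 arrays (circle, square and triangle for replicates 1, 2 and 3), with the mean of 3 arrays as a bar. Dashed and dotted lines mark the background levels of 7.98 and 9.16; every point lies above both, and Catsperb has the widest spread.

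The 4 pore subunit genes had high values that varied little between arrays, as many genes above background did. Of those genes, 33.1% (set against Catsper2) to 50.2% (set against Catsper4) had a range over arrays at least as large. Catsper1, the subunit with a histidine-rich intracellular end, read 10.84, 10.79 and 10.84 in replicates 1, 2 and 3. Its mean was 10.82 ± 0.03 (SD, n = 3), 2.84 above background (limma, adjusted p = 1.84e-05). Catsper2 gave the highest value of the members, with 11.87, 11.81 and 11.89. Its mean of 11.86 ± 0.04 was 3.87 above background (limma, adjusted p = 2.64e-05). The 3 arrays lay within 0.08 of each other for this gene.

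Catsper3 and Catsper4 encode pore proteins that assemble with the other pair. Catsper3 read 10.32, 10.29 and 10.32, the lowest values among the members with a probe set of their own. Its mean of 10.31 ± 0.02 (n = 3) was 2.33 above background (limma, adjusted p = 1.42e-05). Catsper4 read 11.13, 11.12 and 11.14. Its mean of 11.13 ± 0.01 was 3.15 above background (limma, adjusted p = 3.3e-06). None of the pore genes had an array near the background level.

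Among the auxiliary genes, Catsperb had the widest range over the arrays of all members. It encodes the large beta subunit, whose extracellular part caps the channel, and read 10.57 in replicate 1, 10.35 in replicate 2 and 10.94 in replicate 3. The mean was 10.62 ± 0.30 (n = 3), 2.64 above background (limma, adjusted p = 0.0032). The highest and lowest arrays differed by 0.59, a 1.51-fold difference, whereas the other 6 members with their own probe set differed by at most 0.08. Of 7295 genes above background, 0.206% (15 genes) had a range as wide as that of Catsperb. With replicate 1 left out the adjusted p for Catsperb was 0.0559, which did not pass, and 6 of the 7 members were called. Its level without that array was 10.64 and still 2.66 above background.

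Catsperd, the delta subunit gene formerly named Tmem146, read 10.46 on each of the 3 arrays, and Efcab9 read 10.47 on each. Both had exactly equal deposited values, so their SD of 0 is a tie and not an absence of error. Each lay 2.48 above background. Their adjusted p-values are not given, since their own variance is 0 and the spread used comes only from limma's estimate over all genes. Ties were common on these arrays: 46% of all named genes, and 39% of genes above background, had 3 equal values.

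The gamma subunit genes Catsperg1 and Catsperg2 lie on chromosome 7 and could be read only together. Their shared probe set gave 10.86, 10.79 and 11.01, with a mean of 10.88 ± 0.11 (n = 3). It was 2.90 above background when all 23410 probe sets with a gene name were fitted (limma, adjusted p = 0.000312). How this signal divides between the genes cannot be read from this array.

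**Figure D2:**
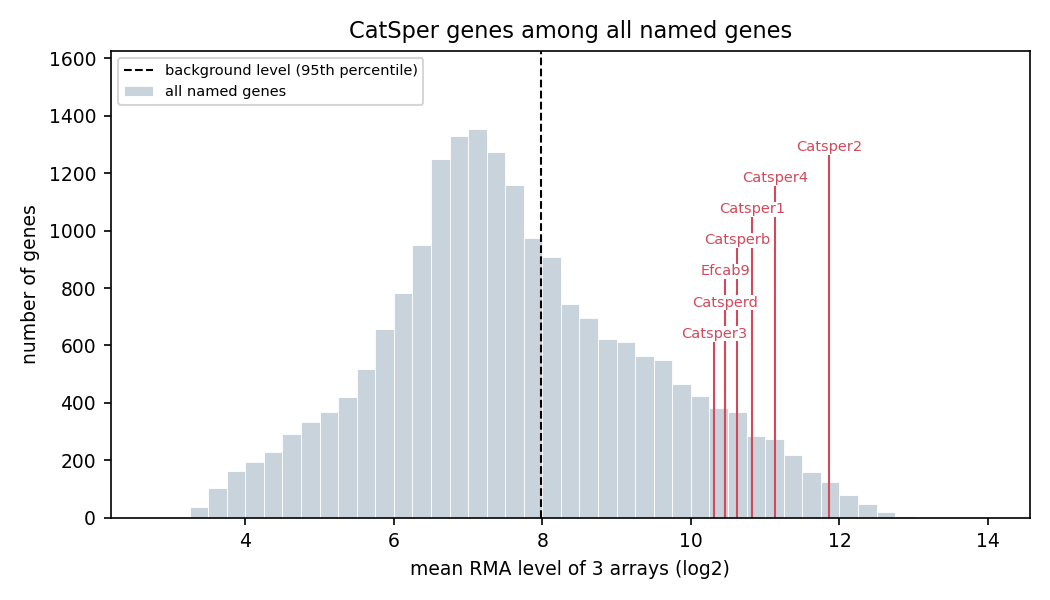
Histogram of the mean RMA level (log2) of all named genes in steps of 0.25, with the 7 CatSper genes that have their own probe set as vertical lines of arbitrary height. All 7 lie to the right of the background level of 7.98, between the 90.6th and 98.9th percentiles of probe set values.

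The members were also set against a stricter and a laxer background level. Against the 99th percentile of the same families, 9.16, all 7 were called, where 19.3% of all genes were. The smallest distance was that of Catsper3, 1.15 above that level, and Catsperb had an adjusted p of 0.0219 (limma). Against the laxer level, the 95th percentile of olfactory receptor genes at 7.18, all 7 were called, where 55% of all genes were.

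The members shared a pattern between arrays. All 5 members without 3 equal values were lowest in replicate 2. In 3 of them (Catsper2, Catsper4 and Catsperb) replicate 3 was highest alone. In Catsper1 and Catsper3 the values of replicates 1 and 3 were equal. The shared Catsperg1 and Catsperg2 probe set was also lowest in replicate 2 and highest in replicate 3. Among the 4451 genes above background without 3 equal values, 58.7% were lowest in replicate 2 alone and 62% highest in replicate 3 alone. Over all 10765 named genes without 3 equal values, 32% were lowest and 39.4% highest in replicate 2 alone. For replicate 3 alone these shares were 24.5% and 33.9%. Replicate 2 was thus the array most often lowest in both sets. Replicate 3 was the array most often highest among genes above background but not among all genes. The mean over the 7 members was 10.81, 10.75 and 10.87 for replicates 1, 2 and 3.

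The arrays' overall distributions differed slightly. The upper quartile of all probe sets was 8.64, 8.62 and 8.67 for replicates 1, 2 and 3, lowest in replicate 2 as the members were. The median was 7.17, 7.20 and 7.17 and the lower quartile 5.91, 5.93 and 5.91, both highest in replicate 2. Centring each array on its median lowers replicate 2 against the others, since its median was highest. All 5 members therefore stayed lowest in replicate 2, an outcome that was fixed in advance. After quantile normalization was applied again to the deposited values, only 1 of the 5 was lowest in replicate 2. For 4 of the 5 the range over arrays was at most 0.08, and the part of the arrays' distributions in this order was not tested further.

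Other genes of the complex were read from a list of 7. Of the 5 with a level of their own, all 5 were above background by limma's adjusted test (36.6% of all genes), with a median of 10.93. Catsperz, the partner of Efcab9, read 12.38, 12.30 and 12.47, and C2cd6, whose protein is needed to place the channel in the tail, read 12.27, 12.20 and 12.41. Slco6c1, a transporter-like protein of the assembly, was at 10.82 ± 0.18 (n = 3). Tmem262 gave the lowest value of the list at 9.40 with tied values. Replicate 2 was lowest in all 4 genes without ties.

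The epsilon subunit is encoded by a near-identical pair, Catspere1 and Catspere2. The probe set that names only Catspere2 read 10.88, 10.81 and 11.08, and the one that names both read 10.35, 10.19 and 10.58. Copies so similar can share probes, so the level of Catspere2 is uncertain, and Catspere1 has none of its own. Tmem249 was not analysed here.

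Genes that set the pH, voltage, cyclic AMP and calcium around the channel were called in 9 of the 10 that had a level (36.6% of all genes), with a median of 10.88. Kcnu1, the sperm potassium channel that hyperpolarises the cell, was at 10.41 with tied values, and its partner Lrrc52 at 9.13, also tied. Slc9c1, the sperm sodium-proton exchanger that raises the internal pH, read 10.67, 10.51 and 10.90. Slc9b1, another exchanger of the sperm tail, was at 11.33 ± 0.13 (n = 3). Adcy10, the bicarbonate-sensitive adenylyl cyclase, was at 11.40 ± 0.03. The exception was Hvcn1, the voltage-gated proton channel, at 6.54 with tied values, which was not called.

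Calcium sensing genes and the remaining genes of this list were called as well. Calm2 and Calm3 encode calmodulin and were at 12.49 ± 0.07 (n = 3) and 11.06 (tied). Cabyr, a calcium-binding protein of the fibrous sheath, was at 11.45 ± 0.02. Abhd2, a lipid hydrolase of the sperm surface, was at 10.01 ± 0.04, and unlike the CatSper genes it was lowest in replicate 3. Prkaca was named only on a probe set with Samd1, so no level of its own is given, and Atp2b4 was not analysed here.

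Pore genes of other voltage-gated calcium channels and related cation channels were mostly not called. Of 13, limma's adjusted test called 1 (36.6% of all genes), Cacna1h, which encodes a T-type channel, at 8.71 with tied values. The other 12 ran from 5.43 (Cacna1f) to 7.79 (Cacna1d), and the median of the list was 6.90. Against the olfactory receptor level 5 of the 13 were called (55% of all genes), and against the 99th percentile level none was (19.3% of all genes), also at an unadjusted p under 0.05 by limma. The lowest CatSper member, Catsper3, read at least 10.29 on every array. This sets lists beside each other on 1 scale; it does not compare RNA amounts of single genes.

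**Figure D3:**
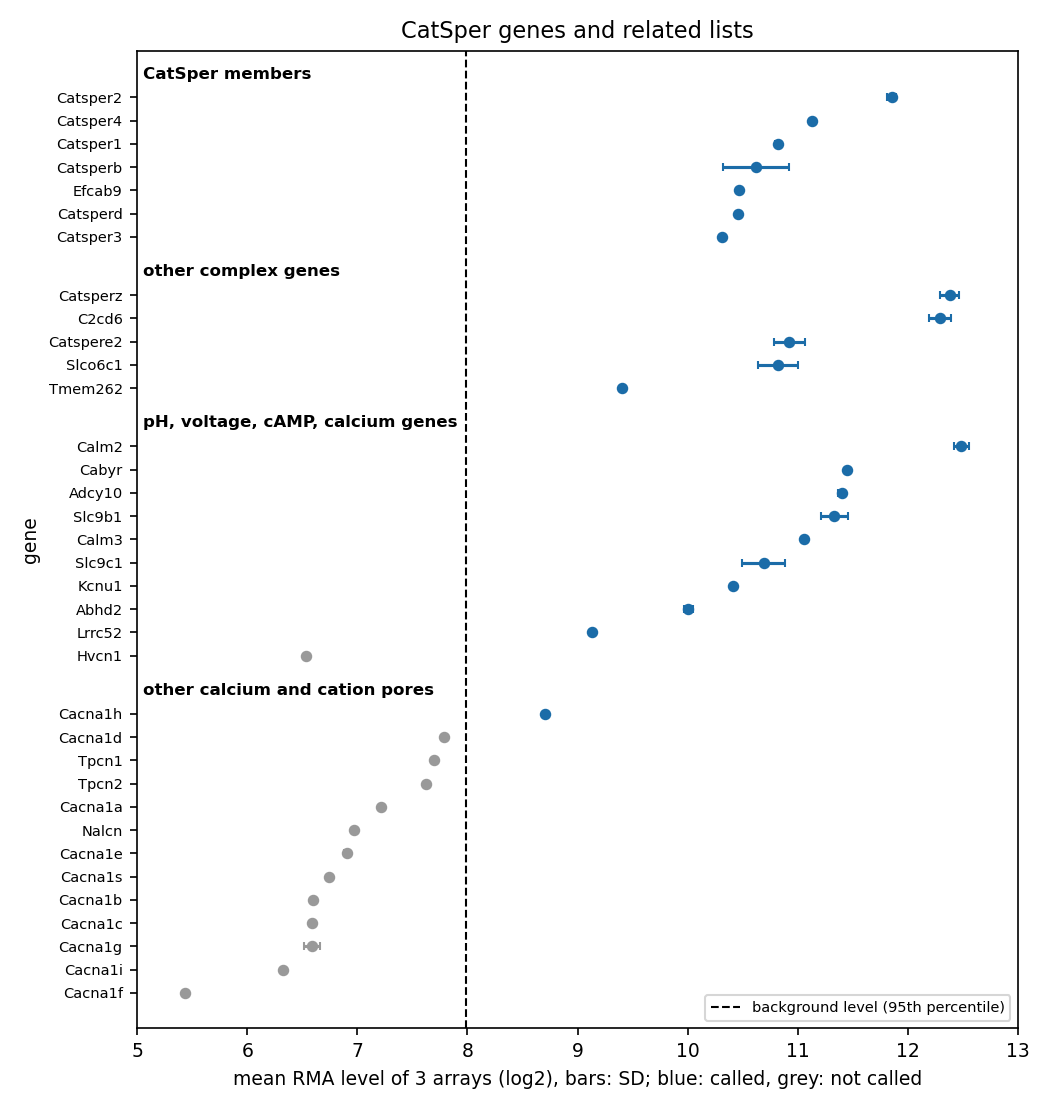
Mean RMA level (log2) of each gene with its own probe set, with bars for the SD over 3 arrays, in 4 lists; blue points were called above background and grey points were not. All 7 CatSper members and all 5 other complex genes lie right of the dashed level of 7.98, 9 of 10 genes of pH, voltage, cyclic AMP and calcium do, and 1 of 13 other pores does.

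The genes next to the members on the chromosome were read as a setting for these levels. Of 17 flanking protein-coding genes with a level, 7 were above background, 41.2% against 36.6% of all genes. The members lie on 8 autosomes and none on chromosome X. Both neighbours of Catsper1, Gal3st3 and Cst6, were not called, at 6.87 ± 0.04 (n = 3) and 6.49 ± 0.05. The same held for both neighbours of Catsper4, Zpld2 at 6.80 and Cnksr1 at 6.06 ± 0.04. The pair around Efcab9, Ubtd2 at 9.59 and Stk10 at 8.15, was called on both sides.

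The head-to-head pairs whose intervening sequence is printed above differed in their calls. Pdia3, a protein disulfide isomerase of the endoplasmic reticulum, read 11.43, 11.26 and 11.60 and was above background, as was Catsper2, while Strc on the other side of Catsper2 was at 6.42 ± 0.13 (n = 3). In the reference gene table the Catsper2 and Pdia3 genes overlap. Lonp1, a mitochondrial protease, was at 7.55 with tied values and not called, although Catsperd, whose start site lies 143 bases away, was. Ranbp3 on the other side of Catsperd was at 9.37 ± 0.01 and was called. Start sites are those of the reference and not of these samples.

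Catsperb and its neighbour Tc2n both varied between arrays. Tc2n read 8.08, 7.71 and 8.58 in replicates 1, 2 and 3, a range of 0.88 or 1.84-fold, in the same order as Catsperb. Its mean of 8.12 ± 0.44 (n = 3) was 0.14 above background and did not pass (limma, adjusted p = 0.801). Ppp4r3a, on the other side of Catsperb, read 9.78, 9.72 and 9.78, a range of 0.06. Replicate 2 was lowest in all 3 of these genes, as it was in 58.7% of genes above background without 3 equal values. Among the 13 flanking genes without 3 equal values, it was lowest in 3: Pdia3, Ppp4r3a and Tc2n.

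**Figure D4:**
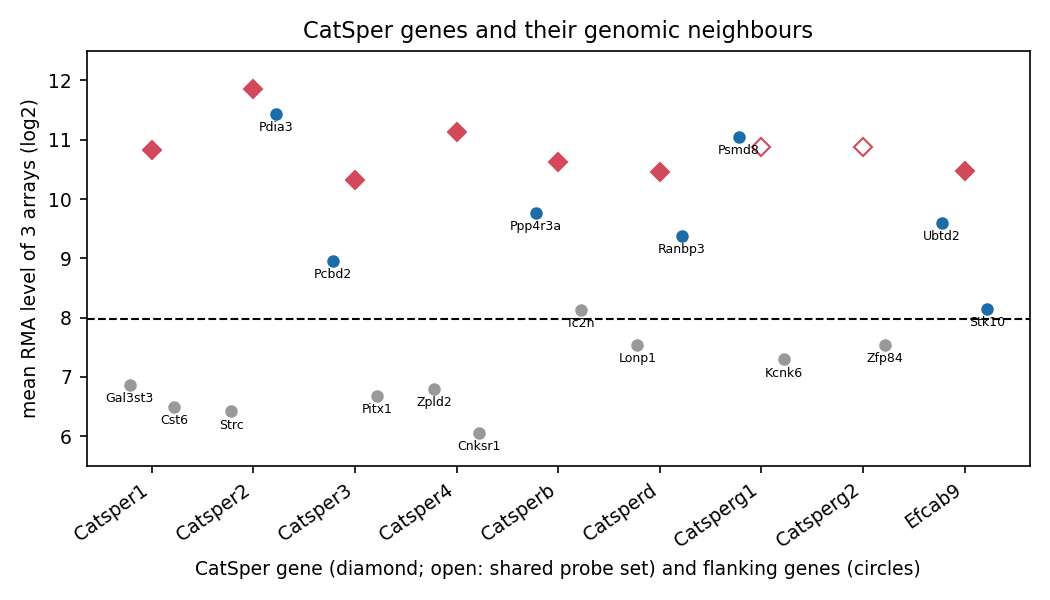
Mean RMA level (log2) of each CatSper gene (diamond, open for the shared Catsperg1 and Catsperg2 probe set) and of the nearest protein-coding gene on its lower-coordinate (left) and higher-coordinate (right) side; blue circles were called above background and grey ones were not. All diamonds lie above 10, and 7 of 17 circles are blue.

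The label of the samples was set against markers. All 7 elongating spermatid genes (list mean 12.41 to 12.47 over the arrays), 4 of 6 round spermatid genes (10.54 to 10.59) and all 7 pachytene spermatocyte genes (11.95 to 12.11) were above background, and 2 of 7 spermatogonium genes were (7.66 to 7.67). Over all named genes the share called was 36.6%, and the spermatogonium share of 28.6% was below it. Tssk6, at 7.43 the lowest of the round spermatid genes, was not called. Markers of somatic testis cells were present as well: all 4 measured Leydig cell genes (10.57 to 10.73) and 4 of 6 Sertoli cell genes (9.01 to 9.02), with Amh, the lowest, at 5.91 and not called. Sox9, another Sertoli cell gene, was at 7.91 and not called. Gata4, 1 of the 4 Sertoli cell genes called, had tied values only 0.015 above background. Peritubular and endothelial genes were called in 2 of 5 (7.74 to 7.80), blood genes in 2 of 4 (7.90 to 7.95) and genes of other tissues in 0 of 6 (6.36 to 6.45) (also 0 at an unadjusted p under 0.05, limma). The shares of 40% for peritubular and endothelial genes and 50% for blood genes lie near the 36.6% of all genes. These counts therefore do not show those cells to be present. The means of all 4 germ cell lists (spermatogonium, pachytene, round and elongating spermatid) were lowest in replicate 2 and highest in replicate 3. The CatSper mean had the same order. So did the median of all genes above background, at 9.40, 9.37 and 9.43 in replicates 1, 2 and 3. For spermatogonium genes the lowest and highest array differed by less than 0.01, and for round spermatid genes replicates 1 and 2 gave 10.5399 and 10.5385. Among genes without 3 equal values, replicate 2 was lowest in 6 of 6 pachytene and 5 of 7 elongating spermatid genes. It was lowest in 1 of 5 round spermatid and 1 of 3 spermatogonium genes, and 0 spermatogonium genes were highest in replicate 3. The Leydig list was lowest in replicate 2 and highest in replicate 1. The part of these cell types in the CatSper levels was not tested.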

How the data were processed

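The deposited values are log2 probe set levels, 1 column per array; the authors made them by Robust Multichip Average (RMA) in Affymetrix Power Tools with mm9 annotation, as the design text of the series records (software version: not given in the sources used here). All 35556 probe sets and 3 samples were used. Probe sets naming 1 gene (21789) gave 19938 gene levels, as the median per gene, with symbols updated by Entrez identifier to the GRCm38.p6 gene table. Levels were tested with limma 3.58.1 in R 4.3.3: intercept model, empirical Bayes, one-sided test of each mean against background (7.98), Benjamini-Hochberg adjustment over all genes at 0.05. The test was checked on simulated data, and alternatives changed the background level, probe set rule, normalization, variance model, gene filter and arrays. With 9173 genes tied on all arrays, the prior carried 0.267 degrees of freedom. With 3 arrays, their number limits the precision.

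Members and lists were chosen with earlier results of these data known. The named genes are all members, every gene of the related channel and pathway lists, flanking genes, and markers at the ends of their lists. The Sertoli cell markers Sox9 and Gata4 are named as well because they lie close to the background level. With 1 group, no gene was named for a like pattern across conditions; genes with a range over arrays as wide as that of Catsperb were added after their values were seen.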

Additional observations from a re-analysis of the deposited data

How the results depend on the processing

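Every count of list members above background was recomputed under 9 alternatives and without each array in turn. The count of 7 CatSper genes was unchanged under 8 of the 9. It became 9 when probe sets of several genes were added, which counts the 1 shared probe set for both Catsperg1 and Catsperg2. The background level was then 8.33, and 31.6% of all genes were called. Without 1 array the CatSper count ranged from 6 to 7. The lower count arose without replicate 1, where Catsperb had an adjusted p of 0.0559 (limma). Over all its alternatives the adjusted p of Catsperb ran from 3.01e-05 to 0.0559 (limma). The median member level ranged from 10.47 to 10.76 without 1 array. The other counts ranged from 6662 to 7090 (all genes) and from 6 to 7 (flanking genes) without 1 array. Other background levels left the CatSper count at 7 but moved others: at the 99th percentile of the background families 3847 genes and 0 of the other pore genes were called, and at the 95th percentile of olfactory receptor genes 10958 and 5. Replicate 2 was lowest in 1 of 5 untied members after a second quantile normalization, a count added after seeing the data. No paired analysis was possible because the samples form a single group.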

Other observations

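Catsperb was 1 of 15 genes above background whose values spanned as much over the arrays as its own 0.59. Of these 15, 12 were lowest in replicate 2 and highest in replicate 3, as Catsperb was, among them Glrx3 (10.26, 9.77 and 10.51 in replicates 1, 2 and 3), Tnpo1 (10.08, 9.90 and 10.53), Zfp105 (9.54, 8.97 and 9.73) and Rbm12b2 (9.27, 9.13 and 9.94). The other 3, Pate11, Prp2 and Gm11564, ran the opposite way, with Pate11 at 9.12, 9.44 and 8.65. Of 2237 genes with a mean between 10 and 12, only Catsperb, Glrx3 and Tnpo1 had a range as wide. These genes were singled out after their values were seen.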
